A study of Mus musculus with 9 samples.

Results

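The growth hormone receptor and IGF1 axis was followed through 10 genes of the 55401 listed in the count table, chosen by symbol: the receptor Ghr, its transducer Stat5b, the feedback genes Socs2 and Cish, the ligand Igf1, its carrier Igfals, the binding proteins Igfbp2, Igfbp3 and Igfbp4, and the receptor Igf1r. All 10 were found and all 10 passed the filter on low counts, which left 15717 genes to test. RNA was sequenced from whole livers of female wild-type mice obtained at 6 weeks of age, with 3 livers in each of 3 groups. Healthy livers had no treatment and served as the baseline. In both HCC (hepatocellular carcinoma) groups, sleeping beauty transposon plasmids encoding myristoylated AKT (EF1α promoter) and the V12 form of Nras (Caggs promoter) were delivered by hydrodynamic tail vein injection, which carries plasmids into hepatocytes. Untreated HCC mice then received a blank AAV8, and miR-22-treated HCC mice AAV8 carrying miR-22 behind a CMV promoter, 1 week after the oncogenes, and livers were harvested at week 5, that is 4 weeks after the virus. Healthy mice therefore had neither plasmids nor virus, so tumor, injection and virus cannot be told apart in the comparisons with healthy livers. The study reports less tumor in livers with miR-22 than in untreated ones. Tumor content and other effects of miR-22 therefore cannot be told apart between the HCC groups. The labels name the strain both as C57BL/6 and as FVB/N, give the virus dose as 1 trillion genome copies per kg where the study's methods give a higher one, and list a β-catenin plasmid beside those for AKT and Nras although the design is stated as RAS/AKT.

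Growth hormone from the pituitary binds its receptor on hepatocytes, and the kinase JAK2 then phosphorylates STAT5B, which enters the nucleus and switches on target genes. Igf1 and Igfals are among these targets, as are Cish and Socs2, whose proteins dampen the signal in turn. Hepatic IGF1 circulates mostly bound to IGFBP3 and the acid-labile subunit encoded by Igfals, and it acts on other tissues through the IGF1 receptor, which hepatocytes carry very little of. The pulsatile secretion in males and the steadier secretion in females also set the sex-biased expression of many liver genes.

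To show where a STAT5 site could lie, windows from 250 bases before to 50 bases after each protein-coding transcript start (GRCm39, GENCODE M39) were searched for TTCNNNGAA, a palindrome that reads the same on both strands. It was present in 3 of the 10 genes (Cish, Igfals and Socs2), against 16.6% of 21594 genes with such windows and 7.96% of 67401 windows. The number of windows differed by gene, from 1 for Igfals to 11 for Socs2 (2 of them with the motif), and the share of genes depends on it. Sites farther from the starts were not searched. Written 5′ to 3′ on the gene's strand, with the match in capitals, the stretches below are those nearest to the starts of Cish and Igfals, one a feedback gene and the other part of the circulating IGF1 complex. Those of Socs2 are not shown.
Cish at chr9:107173953-107173982, plus strand: aagcccgcggTTCTAGGAAgatgaggcttc
Cish at chr9:107173970-107173999, plus strand: aagatgaggcTTCCGGGAAgggctgggacg
Igfals at chr17:25097137-25097166, plus strand: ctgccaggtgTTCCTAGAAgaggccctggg
The first base of the match lay at −148 and −131 from the nearest start of Cish and at −32 from that of Igfals. The stretches of Cish overlap. A match describes these letters and is not evidence of binding.

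The delivered miRNA is shown to ask whether the 10 transcripts hold its seed site. The mouse mature sequence in RefSeq (GRCm38.p6), with the seed, bases 2 to 8, in capitals, reads as follows.
mmu-miR-22-3p: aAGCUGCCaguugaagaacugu
The matching site, GGCAGCT, was found in 0 of the 10 canonical 3′ UTRs, read on the transcript strand, and in 14.1% of 20801 3′ UTRs of the annotation. Only this match was searched, in the canonical transcript of each gene, so other sites were not excluded. The mature miRNA itself was not measured in these libraries as analysed here.

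Healthy libraries held 18258660 to 20964551 counts, untreated HCC libraries 18293676 to 23908392, and those of miR-22-treated HCC 16664659 to 20459853. Levels below are counts per 1000000 counts of a library (CPM) after TMM scaling, given in replicate order (1 to 3 for healthy livers, 2 to 4 for both HCC groups), with means ± SD. Hepatocyte markers were present in all livers. The 8 together gave 123900 to 128400 CPM in healthy livers, 49370 to 61610 CPM in livers with untreated HCC and 74290 to 92720 CPM with miR-22, with 8 of 8 called lower in untreated HCC and 4 of 8 lower with miR-22 (each against healthy livers), and 5 of 8 higher with miR-22 than in untreated HCC. Most of this sum was Alb (means 101450, 45898 and 67209 CPM in the same order). In untreated HCC against healthy livers single markers ran from log2 −0.71 (Hnf4a) to −3.10 (Serpina1c), with a median of −1.61. With miR-22 against untreated HCC the median was log2 0.94. The sum of 7 bile duct markers moved opposite to the hepatocyte markers, with 31.8 to 43.9 CPM in healthy livers, 3351 to 6278 CPM where HCC was untreated, and 1571 to 2723 CPM with miR-22. In both HCC groups nearly all of it was Spp1, a secreted protein gene (3239 to 6077 CPM in untreated HCC). In healthy livers Spp1 was most of it (23.7 to 31.9 CPM). Of the 7, 6 were called higher in untreated HCC and 5 lower with miR-22, and Krt19, a defining keratin of bile ducts, was called in neither comparison. The 10 stellate cell and fibroblast markers summed to 379 to 450 CPM, 1041 to 1209 and 822 to 967 in the same order, and none of the markers of these 3 lists was at 0 throughout a group. In whole liver, fewer hepatocytes and less RNA per hepatocyte cannot be told apart, and the part of these shifts in the results below was not tested.

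**Figure D1:**
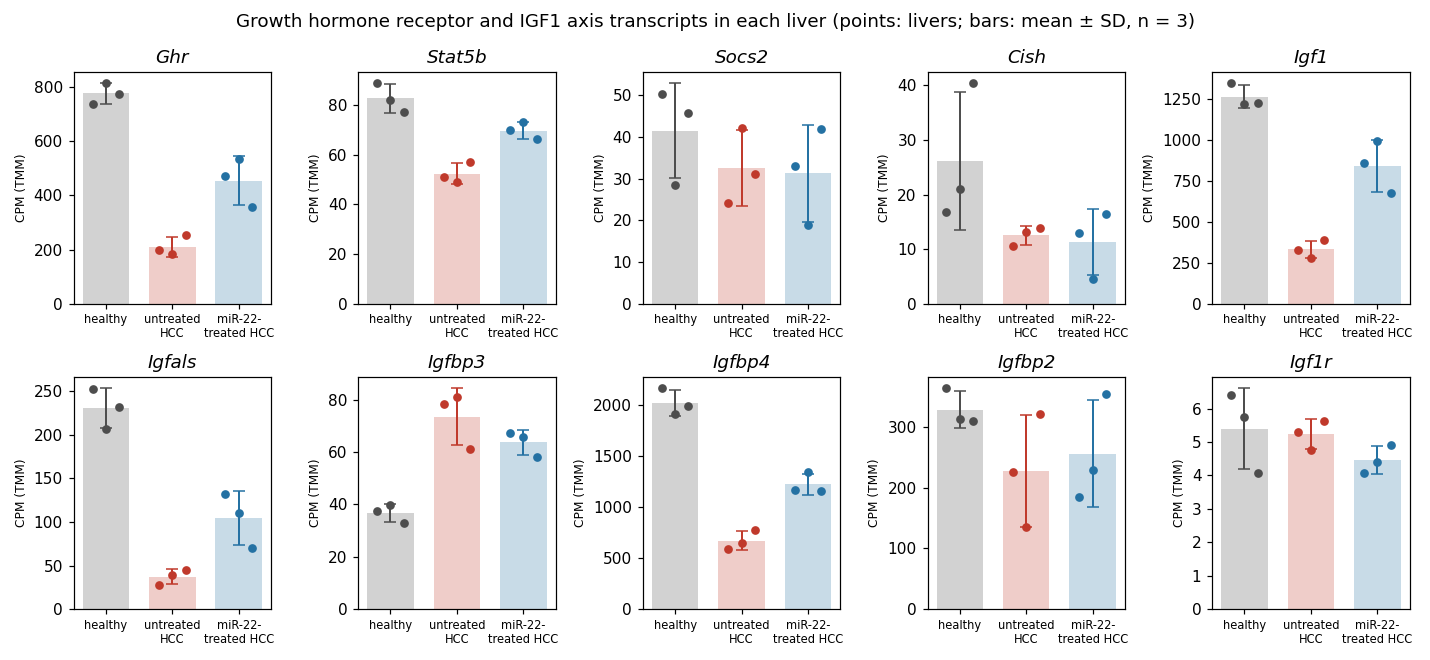
CPM (TMM-scaled, y axis from 0) of the 10 genes in each liver of the 3 groups (x axis), with points for livers, bars for means and whiskers for SD (n = 3). Ghr, Igf1, Igfals, Igfbp4 and Stat5b sit highest in healthy livers, lowest in untreated HCC and in between with miR-22, whereas Igfbp3 is higher in both HCC groups.

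Ghr, the receptor through which growth hormone acts (chromosome 15, 3347235 to 3613024, minus strand), was at 738, 815 and 776 CPM in healthy livers. It was at 197, 183 and 253 CPM in untreated HCC and at 472, 535 and 355 CPM with miR-22. No untreated liver overlapped a liver of either other group, and the miR-22-treated livers lay wholly between. Against healthy livers, Ghr was 3.67-fold lower in untreated HCC (log2 fold change −1.88, SE 0.162, edgeR adjusted p = 1.09e-06). With miR-22 it was 2.15-fold higher than in untreated HCC (log2 1.10, SE 0.159, edgeR adjusted p = 0.000704), and it remained 1.71-fold lower than in healthy livers (edgeR adjusted p = 0.00224).

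Stat5b, the transcription factor that carries the signal to the nucleus (chromosome 11, 100671556 to 100741589, minus strand), varied far less. Its level was 89.0, 82.2 and 77.2 CPM in healthy livers, 51.0, 48.9 and 57.1 CPM in untreated HCC, and 69.8, 73.0 and 66.4 CPM with miR-22. The 3 groups did not overlap in any pair. The fall in untreated HCC was 1.58-fold (log2 −0.66, SE 0.0900, edgeR adjusted p = 4.54e-05). The difference with miR-22, log2 0.41 (SE 0.0900, edgeR adjusted p = 0.00627), was 1.33-fold and short of the fold threshold of 1.5, as was the remaining gap to healthy livers (log2 −0.25, edgeR adjusted p = 0.0466).

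Socs2, which encodes an adaptor that targets the activated growth hormone receptor for degradation, was at 50.2, 28.5 and 45.8 CPM in healthy livers, 24.3, 42.2 and 31.1 CPM in untreated HCC, and 33.1, 18.8 and 41.9 CPM with miR-22. All 3 groups overlapped, and the log2 fold change of −0.05 between miR-22-treated and untreated HCC had a 95% interval of −0.65 to 0.55 (edgeR adjusted p = 0.917). Untreated HCC against healthy livers gave log2 −0.35, with an interval of −0.95 to 0.25 (edgeR adjusted p = 0.297). Changes within these intervals were thus not excluded.

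Cish, whose product competes with STAT5 for the receptor, was at 16.8, 21.0 and 40.4 CPM in healthy livers. Untreated HCC livers had 10.6, 13.2 and 13.9 CPM and miR-22-treated livers 12.9, 4.59 and 16.5 CPM. Healthy livers lay above all HCC livers, whereas the HCC groups overlapped each other. Against healthy livers, Cish was 2.08-fold lower in untreated HCC (log2 −1.06, SE 0.372, edgeR adjusted p = 0.028) and 2.29-fold lower with miR-22 (log2 −1.20, edgeR adjusted p = 0.0263). Both calls were lost with DESeq2 (adjusted p = 0.0946 and 0.0626) and without healthy replicate 3, the highest liver (edgeR log2 −0.60 and −0.75, adjusted p = 0.187 and 0.147). The first was also lost without untreated replicate 2 or 3 (edgeR adjusted p = 0.0935 and 0.0628), and the second without miR-22-treated replicate 3 (edgeR log2 −0.83, adjusted p = 0.0549). The log2 fold change with miR-22 against untreated HCC was −0.14, with an interval of −0.96 to 0.69 (edgeR adjusted p = 0.831).

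Igf1, the main circulating growth factor made by the liver under growth hormone (chromosome 10, 87693642 to 87772904, plus strand), was at 1348, 1219 and 1227 CPM in healthy livers. It was at 328, 279 and 388 CPM in untreated HCC and at 860, 993 and 676 CPM with miR-22. The groups did not overlap in any pair, and in the HCC livers the lowest and highest replicates of each group were those of Ghr. Igf1 fell 3.81-fold in untreated HCC (log2 −1.93, SE 0.161, edgeR adjusted p = 8.29e-07) and was 2.54-fold higher with miR-22 than without (log2 1.35, SE 0.158, edgeR adjusted p = 0.000216). Against healthy livers the miR-22-treated livers had log2 −0.58 (edgeR adjusted p = 0.0111), which lies at the fold threshold and was not called, although several other settings placed it just past it.

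Igfals, the acid-labile subunit that locks IGF1 and IGFBP3 into the long-lived circulating complex (chromosome 17, 25084971 to 25100984, plus strand), showed the steepest fall of the 10 genes in untreated HCC. Healthy livers had 253, 207 and 232 CPM, untreated HCC livers 27.5, 39.3 and 44.6 CPM, and miR-22-treated livers 132, 111 and 70.5 CPM. No liver of any group overlapped another group. The fall was 6.20-fold (log2 −2.63, SE 0.220, edgeR adjusted p = 8.44e-07) and the rise with miR-22 2.81-fold (log2 1.49, SE 0.214, edgeR adjusted p = 0.000694). The miR-22-treated livers stayed 2.21-fold below healthy livers (log2 −1.14, edgeR adjusted p = 0.0011).

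Igfbp3, the third part of that complex (chromosome 11, 7156086 to 7164179, minus strand), which in liver is made mainly by non-parenchymal cells, went the opposite way. Its level was 37.5, 39.7 and 32.9 CPM in healthy livers, 78.4, 81.1 and 61.1 CPM in untreated HCC, and 67.1, 65.9 and 58.0 CPM with miR-22. All HCC livers exceeded all healthy livers, and the HCC groups overlapped each other. Igfbp3 was 2.00-fold higher in untreated HCC than in healthy livers (log2 1.00, SE 0.119, edgeR adjusted p = 1.41e-05) and 1.74-fold higher with miR-22 than in healthy livers (log2 0.80, edgeR adjusted p = 0.000277). The difference between miR-22-treated and untreated HCC was log2 −0.21, with an interval of −0.46 to 0.04 (edgeR adjusted p = 0.222). The stellate cell and fibroblast markers, with summed levels given above, were also higher in HCC as a sum, with 6 of 10 called higher and 2 lower (Dcn and Lrat, log2 −0.61 and −1.50) in untreated HCC. Endothelial markers were lower there as a sum (230 to 296 CPM against 374 to 470 in healthy livers), with 5 of 8 called lower and 0 higher. Macrophage markers summed to 335 to 396 CPM against 363 to 458, with 1 of 8 called higher and 1 lower. The part of any of these cells in this result was not tested.

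The ligand and its binding protein therefore stood in different proportion. The ratio of Igf1 to Igfbp3 CPM was 34.7 ± 3.50 in healthy livers, 4.66 ± 1.51 in untreated HCC and 13.2 ± 1.73 with miR-22 (SD, n = 3). Single livers ranged from 30.7 to 37.3, from 3.44 to 6.35 and from 11.7 to 15.1, so the groups did not overlap. An exact permutation test gave p = 0.1 (two-sided) for each of the 3 pairs of groups, the smallest that 3 livers against 3 allow. These are ratios of transcripts and not of proteins.

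Igfbp4, which binds IGFs and holds them from their receptor (chromosome 11, 98932064 to 98945218, plus strand), was the most abundant of the 10 transcripts. Healthy livers had 2165, 1908 and 1988 CPM, untreated HCC livers 586, 650.1 and 775 CPM, and miR-22-treated livers 1169, 1343 and 1162 CPM. The groups did not overlap in any pair. Igfbp4 fell 3.01-fold in untreated HCC (log2 −1.59, SE 0.135, edgeR adjusted p = 9.46e-07), was 1.83-fold higher with miR-22 than without (log2 0.87, SE 0.133, edgeR adjusted p = 0.000922), and stayed 1.65-fold below healthy livers (log2 −0.72, edgeR adjusted p = 0.00112).

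Igfbp2, the binding protein whose plasma level growth hormone lowers, was uneven within the HCC groups. It was at 364, 313 and 309.7 CPM in healthy livers, 225, 136 and 322 CPM in untreated HCC, and 184, 229.6 and 355 CPM with miR-22. The highest liver of each HCC group lay within the healthy range, the others below it, and the HCC groups overlapped each other. No comparison was called: log2 −0.53 in untreated HCC against healthy livers (interval −1.12 to 0.06, edgeR adjusted p = 0.118), which was called only without untreated replicate 4 (log2 −0.87, edgeR adjusted p = 0.0139), and log2 0.17 between the HCC groups (interval −0.42 to 0.77, edgeR adjusted p = 0.696).

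Igf1r, the receptor for IGF1, was the scarcest of the 10 genes. It was at 6.41, 5.73 and 4.07 CPM in healthy livers, 5.30, 4.75 and 5.64 CPM in untreated HCC, and 4.06, 4.40 and 4.90 CPM with miR-22. All 3 groups overlapped. The log2 fold change was −0.04 in untreated HCC against healthy livers (interval −0.48 to 0.39, edgeR adjusted p = 0.871) and −0.23 with miR-22 against untreated HCC (interval −0.67 to 0.21, edgeR adjusted p = 0.454).

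Counting the 10 genes against healthy livers, 6 were called lower and 1 higher in untreated HCC, while 18.1% of all tested genes were called lower and 22.7% higher (40.8% in either direction). Livers did not overlap for 7 of the 10 genes, against 65.3% of all tested genes. With miR-22, 4 were higher and 0 lower than in untreated HCC (Ghr, Igf1, Igfals and Igfbp4), while 8.32% of all tested genes were called higher and 5.47% lower (13.8% in either direction). Livers did not overlap for 5 of the 10 genes there, Stat5b included, against 39.3% of all tested genes. For miR-22-treated HCC against healthy livers, 1 was higher (Igfbp3) and 4 lower (Ghr, Igfals, Igfbp4 and Cish), beside 16.9% and 7.05% of all tested genes (24% in either direction). Livers did not overlap for 7 of the 10, against 48.8% of all tested genes. The untreated HCC livers serve in both of the first 2 comparisons, and the healthy livers in the first and the last, so a gene measured low by chance in untreated HCC would appear both as a fall and as a rise.

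**Figure D2:**
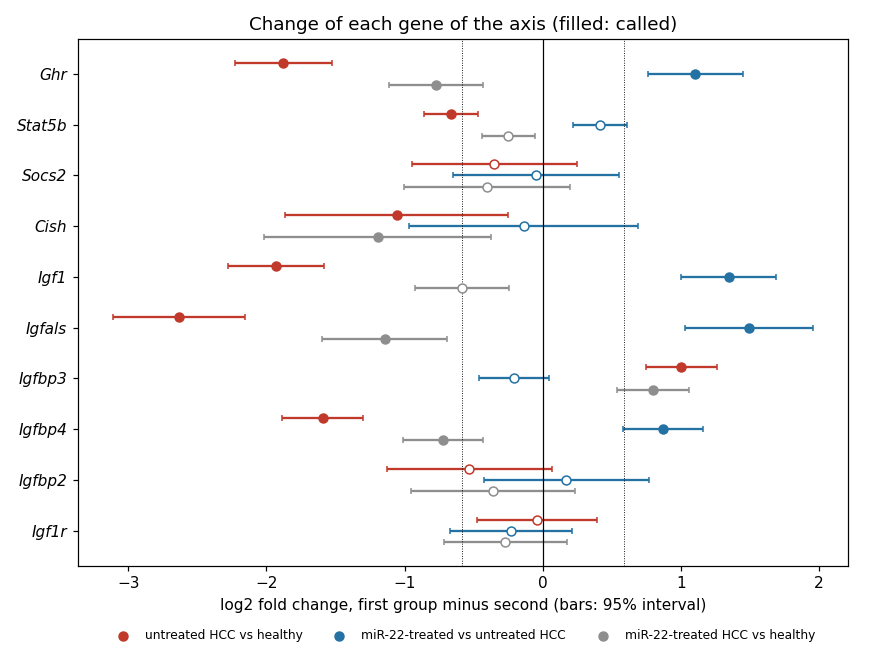
Log2 fold change (x axis, first group minus second) of each of the 10 genes (y axis) in the 3 comparisons, with 95% intervals as bars, called changes as filled points and dotted lines at a 1.5-fold change. Ghr, Igf1, Igfals and Igfbp4 lie left of 0 in untreated HCC against healthy livers and right of 0 with miR-22 against untreated HCC.

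Across livers of a group, the feedback genes had a wider spread than most tested genes. Cish had a biological coefficient of variation of 32.3%, higher than 91.4% of tested genes, Socs2 one of 23.9% and Igfbp2 one of 23.8%, while the median over tested genes was 13.6%. Ghr (14.4%) and Igf1 (14.2%) were near that median, and Stat5b was among the steadiest at 8.81%. In miR-22-treated replicate 3, Cish (4.59 CPM) and Socs2 (18.8 CPM) were the lowest of all 9 livers, although Ghr (535 CPM) and Igf1 (993 CPM) were the highest of that group.

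Divided by the length of the canonical transcript, levels can be set against each other. In healthy livers the order was Igfbp4 (526 ± 34.2 CPM per kb), Igfbp2 (249 ± 23.2), Igf1 (179 ± 10.2), Ghr (173 ± 8.58), Igfals (86.2 ± 8.59), Socs2 (16.3 ± 4.51), Stat5b (16.2 ± 1.15), Igfbp3 (13.6 ± 1.29), Cish (7.16 ± 3.45) and Igf1r (0.434 ± 0.0969; SD, n = 3). Igf1 did not differ from Ghr beyond its spread, nor Socs2 from Stat5b or Igfbp3. In untreated HCC, Igfbp4 (175 ± 25.1 CPM per kb) and Igfbp2 (172 ± 70.5) stood level, Igf1 (46.9 ± 7.68) and Ghr (47.0 ± 8.19) again did, and Igfbp3 (27.2 ± 4.02) exceeded Igfals (13.9 ± 3.27). With miR-22, Igfals (39.04 ± 11.7) was again above Igfbp3 (23.5 ± 1.83). Livers splice Igf1 and Ghr in several forms, so these lengths are approximate.

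The genes most like Igf1 over the 9 livers, by the root mean square difference of centred log2 CPM, were Lipc, the hepatic lipase (0.0912), Kyat1, a kynurenine aminotransferase (0.114), and Sec14l4, a lipid-binding protein gene (0.116). For Ghr they were Aldh6a1, a mitochondrial enzyme of valine breakdown (0.0540), Ugt3a2, a UDP-glycosyltransferase (0.0582), and Amy1, an amylase (0.0666), the last 2 of families with similar sequences. Igf1 and Ghr differed from each other by 0.131 on this scale. The 9 livers fall into 3 groups, so the livers are not independent points.

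Among 12 partners of the growth hormone receptor in signaling, 2 were higher and 1 lower in untreated HCC (against healthy livers, median log2 0.30 over the list, 0.012 over all tested genes). In that comparison 22.7% of all tested genes were called higher and 18.1% lower (40.8% in either direction). The kinase gene Jak2 was at 31.7 ± 3.01 CPM in healthy livers, 39.4 ± 1.27 in untreated HCC and 38.5 ± 2.38 with miR-22 (log2 0.31 for untreated HCC against healthy, SE 0.0942, edgeR adjusted p = 0.0123, under the fold threshold). Stat5a was at 21.7 ± 3.38, 17.4 ± 2.33 and 16.8 ± 2.41 CPM and was not called in any comparison. Stat3, Ptpn11 and Ptpn1, a transcription factor and phosphatases of cytokine signaling, had log2 0.34, 0.38 and 0.41 in untreated HCC against healthy livers, all under the fold threshold. Of the 2 called higher, Socs1, an inhibitor of JAK kinases named here after its values were seen, was near the detection limit at 0.566, 0.441 and 0.385 CPM in healthy livers and 1.31, 1.52 and 0.486 CPM in untreated HCC, which overlap. Its call (log2 1.23, edgeR adjusted p = 0.0484) was lost with DESeq2 (adjusted p = 0.0823) and in 8 of 9 fits with 1 liver left out, the exception being untreated replicate 4 (highest edgeR adjusted p = 0.183).

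Socs3, a cytokine-induced inhibitor of JAK kinases, was at 10.4, 4.73 and 6.10 CPM in healthy livers, 25.03, 21.9 and 20.9 in untreated HCC, and 10.5, 12.5 and 11.9 with miR-22. No 2 groups overlapped. It was 3.19-fold higher in untreated HCC (log2 1.68, SE 0.220, edgeR adjusted p = 3.3e-05) and 1.94-fold lower with miR-22 than without (log2 −0.96, SE 0.210, edgeR adjusted p = 0.0065). Prlr, the prolactin receptor, which resembles the growth hormone receptor, was at 545, 575 and 529.6 CPM in healthy livers, 75.0, 105 and 149 in untreated HCC, and 318, 220.2 and 133 with miR-22, so that the HCC groups overlapped each other. It fell 5.02-fold in untreated HCC (log2 −2.33, edgeR adjusted p = 1.91e-05). With miR-22 it had log2 1.03 against untreated HCC (edgeR adjusted p = 0.0179), a call lost when untreated replicate 2 or 3 or miR-22-treated replicate 2 or 3 was left out (highest edgeR adjusted p = 0.0821). Over the 12 partners, 1 was higher and 1 lower with miR-22 than in untreated HCC, namely these 2 genes (median log2 −0.06, 0.0020 over all tested genes). Of all tested genes, 8.32% were called higher there and 5.47% lower (13.8% in either direction).

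A further list of 14 genes held IGF ligands, receptors, binding proteins and a family of proteases that cleave these, with the stanniocalcins that inhibit the proteases and RNA-binding proteins named for binding Igf2 transcripts, and 12 were tested. In untreated HCC 6 of them were higher (Igf2, Igf2r, Igfbp7, the stanniocalcins Stc1 and Stc2, and the RNA-binding protein gene Igf2bp2) and 2 lower than in healthy livers (median log2 1.01, unchanged with the genes at the floor set to their bound). The shares of all tested genes were 22.7% higher and 18.1% lower. Igf2, the fetal growth factor, had 0 counts in all 3 healthy livers and 169, 136 and 181 counts in untreated HCC, at least 38.3-fold higher against a floor of 3 counts per library, and with miR-22 it was at least 47.9-fold higher (229, 103 and 133 counts). The HCC groups overlapped each other. Stc1, a stanniocalcin whose family inhibits the proteases that cleave IGF binding proteins, had 0, 2 and 0 counts in healthy livers and was at least 71.1-fold higher in untreated HCC. It was 1.95-fold lower with miR-22 than without (log2 −0.96, edgeR adjusted p = 0.0111), a call lost without untreated replicate 2 or 3 or miR-22-treated replicate 3 (highest edgeR adjusted p = 0.0671).

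Igf2r, the receptor that clears IGF2, was at 74.9 ± 5.66 CPM in healthy livers, 156 ± 11.3 in untreated HCC and 99.3 ± 2.10 with miR-22, with no overlap of any groups. It rose 2.09-fold in untreated HCC (log2 1.06, edgeR adjusted p = 9.73e-07) and was 1.57-fold lower with miR-22 (log2 −0.65, edgeR adjusted p = 0.000534). Insr, the insulin receptor, fell 2.05-fold, from 219 ± 12.2 to 107 ± 6.15 CPM (log2 −1.04, edgeR adjusted p = 3.94e-06). With miR-22 it was at 158 ± 19.1 CPM, log2 0.57 above untreated HCC (edgeR adjusted p = 0.00256), just under the fold threshold.

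Igfbp1, an insulin-repressed binding protein made by hepatocytes, was at 88.3, 38.9 and 41.0 CPM in healthy livers, 60.9, 55.3 and 28.3 in untreated HCC, and 176, 86.0 and 174 with miR-22. It was 3.03-fold higher with miR-22 than without (log2 1.60, SE 0.358, edgeR adjusted p = 0.00722), with no overlap, and 2.60-fold above healthy livers although miR-22-treated replicate 3 lay below healthy replicate 1 (log2 1.38, edgeR adjusted p = 0.0095, and 0.0503 without healthy replicate 2). Igfbp1 was the one gene of this list called higher with miR-22 than in untreated HCC, beside 2 called lower (Stc1 and Igf2r), with a median of log2 0.09. The shares of all tested genes were 8.32% higher and 5.47% lower. In untreated HCC against healthy livers Igfbp7 and the RNA-binding protein gene Igf2bp2 were higher (log2 0.96 and 1.67, edgeR adjusted p = 1.58e-06 and 0.000285), and Igfbp5 was lower (log2 −1.74, edgeR adjusted p = 3.05e-05). None of these 3 was called with miR-22 against untreated HCC (log2 −0.15, −0.47 and 0.42). Against healthy livers, 7 of the 12 were higher and 1 lower with miR-22, beside 16.9% and 7.05% of all tested genes.

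**Figure D3:**
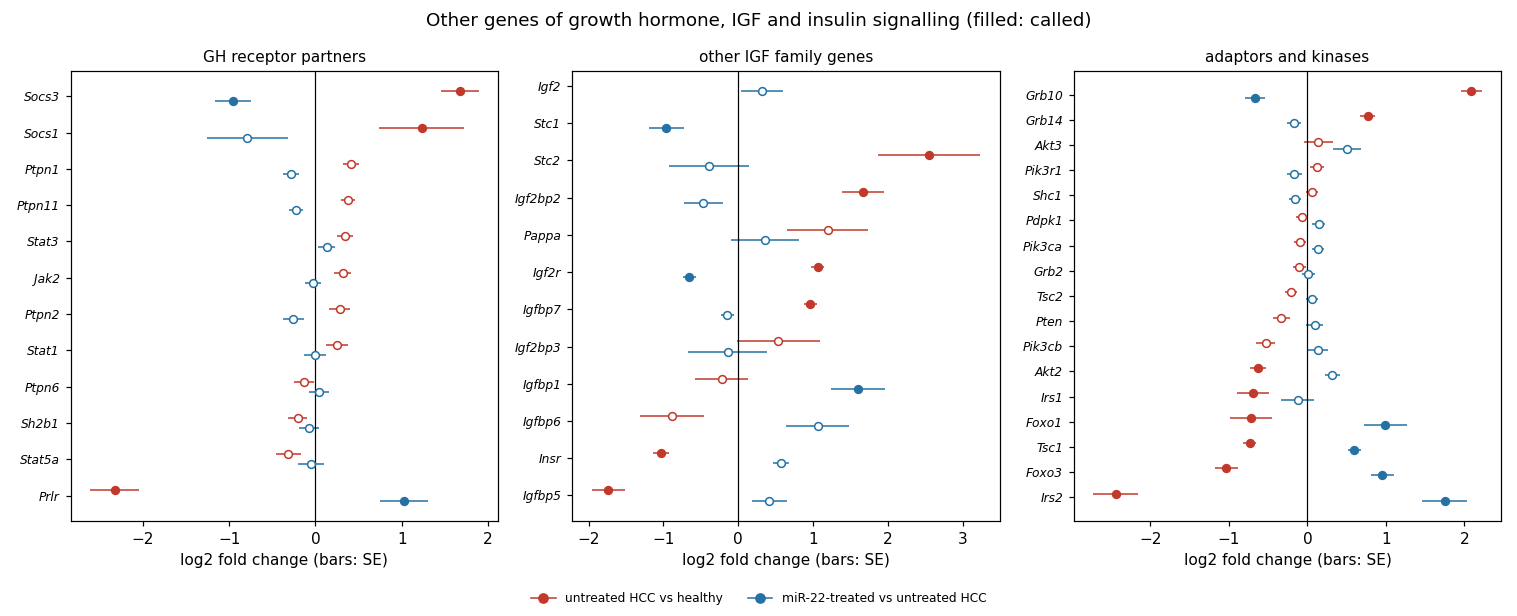
Log2 fold change with SE (x axis) of the tested genes of 3 lists (y axis), for untreated HCC against healthy livers and miR-22-treated against untreated HCC, with filled points for called changes. Socs3 and Grb10 lie right of 0 in untreated HCC and left with miR-22, Irs2 and Foxo3 the reverse, and the values of Igf2 and Stc1 against healthy livers are not drawn because healthy livers were at the floor.

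Below the IGF1 and insulin receptors, 2 of 17 adaptor and kinase genes were higher and 6 lower in untreated HCC (median log2 −0.21), and 4 were higher and 1 lower with miR-22 (median log2 0.13). Of all tested genes, 22.7% were called higher and 18.1% lower in the first comparison (40.8% in either direction). In the second, 8.32% were called higher and 5.47% lower (13.8% in either direction). Akt1 was not on the list since it is the gene of the injected oncogene. Irs2, the insulin receptor substrate typical of liver, was at 50.7, 65.3 and 44.0 CPM in healthy livers, 9.61, 7.84 and 11.8 in untreated HCC, and 45.9, 17.7 and 35.0 with miR-22. It fell 5.44-fold (log2 −2.44, edgeR adjusted p = 1.27e-05) and was 3.36-fold higher with miR-22 than without (log2 1.75, edgeR adjusted p = 0.00124). Irs1, the related substrate, was lower in untreated HCC by a smaller step (log2 −0.69, edgeR adjusted p = 0.0119), a call lost without healthy replicate 3 or untreated replicate 3 (highest edgeR adjusted p = 0.0725), and it was at log2 −0.12 with miR-22 against untreated HCC (edgeR adjusted p = 0.72).

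Grb10, an adaptor that inhibits both receptors, was at 7.04, 6.80 and 6.92 CPM in healthy livers, 30.2, 29.2 and 29.03 in untreated HCC, and 17.1, 15.9 and 22.5 with miR-22. The groups did not overlap. It rose 4.25-fold in untreated HCC (log2 2.09, SE 0.136, edgeR adjusted p = 1.24e-07) and was 1.59-fold lower with miR-22 (log2 −0.67, edgeR adjusted p = 0.00277), which fell just under the fold threshold without miR-22-treated replicate 3. Its relative Grb14 rose 1.70-fold in untreated HCC (log2 0.77, edgeR adjusted p = 2.26e-05) and was at log2 −0.17 with miR-22 (edgeR adjusted p = 0.217). Foxo3, a transcription factor held out of the nucleus by AKT, was lower in untreated HCC and higher with miR-22 (log2 −1.03 and 0.95, edgeR adjusted p = 6.87e-05 and 0.000988). Tsc1, which restrains mTORC1, followed the same course (log2 −0.73 and 0.60, edgeR adjusted p = 1e-05 and 0.000603), the second just past the fold threshold and under it without replicate 2 of either HCC group. Against healthy livers, 3 of the 17 were higher and 1 lower with miR-22, beside 16.9% and 7.05% of all tested genes.

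Sex-biased liver genes respond to the pattern of growth hormone secretion and were followed as a further set, in female livers only. Of 18 female-biased genes, 16 were lower and 1 higher in untreated HCC than in healthy livers (median log2 −3.51), 12 were higher and 0 lower with miR-22 than without (median log2 1.72), and 14 remained lower and 1 higher with miR-22 than in healthy livers (median log2 −1.58, 0.022 over all tested genes). Of all tested genes, 18.1% were lower and 22.7% higher in the first comparison, 8.32% higher and 5.47% lower in the second, and 7.05% lower and 16.9% higher in the third.

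Acot3, a peroxisomal acyl-CoA thioesterase, was at 291, 299 and 229 CPM in healthy livers, 7.08, 13.4 and 9.67 in untreated HCC, and 33.6, 17.6 and 55.1 with miR-22. It fell 27.1-fold (log2 −4.76, edgeR adjusted p = 3.64e-07) and was 3.54-fold higher with miR-22 than without (log2 1.82, edgeR adjusted p = 0.00232). The cytochromes Cyp2b9 (log2 −2.97 and 1.35, edgeR adjusted p = 1.75e-06 and 0.00311) and Cyp2a4 (log2 −1.92 and 1.04, edgeR adjusted p = 1.79e-06 and 0.00139) took the same course. Prlr, given above, is also on this list. Cyp2 genes have close copies, among which reads may have been divided, so single members are uncertain.

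Male-biased genes were split. Of 17, 5 were higher and 9 lower in untreated HCC (against healthy livers, median log2 −1.05), 9 were higher and 0 lower with miR-22 than without (median log2 1.10), and 7 were higher and 3 lower with miR-22 than in healthy livers (median log2 −0.05). In the same order, 22.7% and 18.1%, 8.32% and 5.47%, and 16.9% and 7.05% of all tested genes were called higher and lower. The medians of the list were the same with Cyp4a12b, at 0 counts in healthy livers, set to its bound. Cyp4a12a, a male-specific fatty acid hydroxylase, had 3, 1 and 9 counts in healthy livers, and was at 106, 42.8 and 78.6 CPM in untreated HCC and 90.5, 134 and 128 CPM with miR-22, against 0.0630 to 0.494 CPM in healthy livers. Mup20, a male urinary pheromone protein, was at 4.15, 3.53 and 2.53 CPM in healthy livers, 335, 122 and 131 in untreated HCC, and 115, 199.5 and 293 with miR-22. Both genes were far above healthy livers in every HCC liver and overlapped between the HCC groups.

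Gstp1, a glutathione transferase, rose 5.76-fold in untreated HCC (from 58.6 ± 5.82 to 338 ± 43.2 CPM, log2 2.53, edgeR adjusted p = 1.17e-07), and Cyp2d9, a male-biased steroid hydroxylase, 4.88-fold (from 16.0 ± 2.49 to 78.1 ± 15.5 CPM, log2 2.29, edgeR adjusted p = 8.29e-07). With miR-22 they were at 232 ± 54.6 and 61.5 ± 14.1 CPM, neither called against untreated HCC (log2 −0.54 and −0.34, edgeR adjusted p = 0.0231 and 0.181). None of the named male-biased genes was called between the HCC groups, and of the 9 others that were, 8 had been called lower in untreated HCC. All of the named ones are among the 5 called higher in untreated HCC. Those called lower there ran from log2 −1.05 to −6.07, the last at 0 to 8 counts per untreated HCC liver. Members of the Mup, Cyp4a and Gstp families share near-identical sequence, so the division of reads among them is uncertain.

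**Figure D4:**
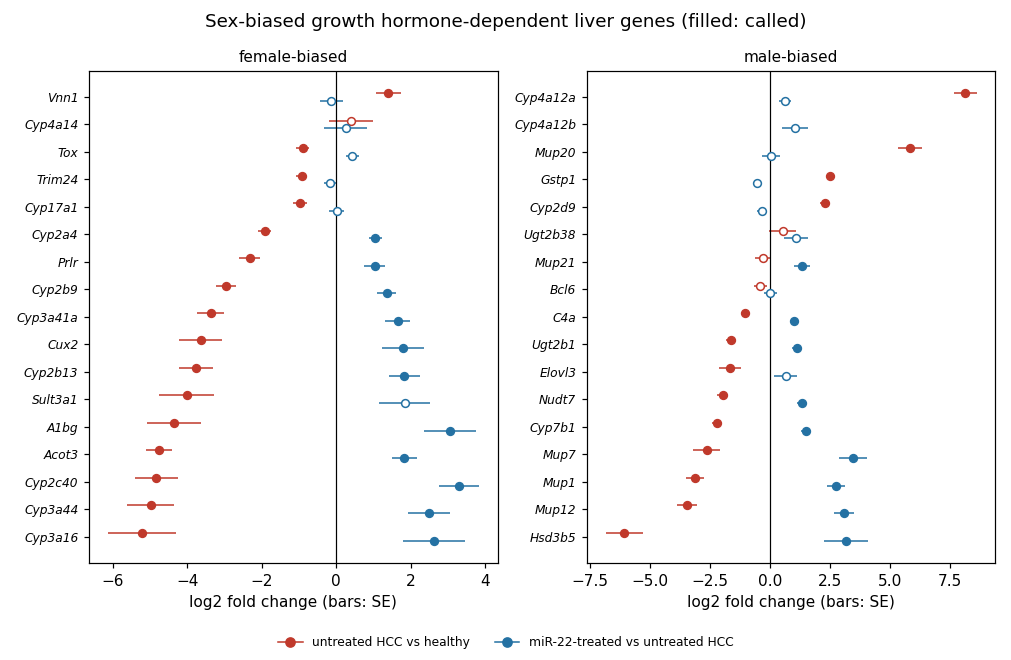
Log2 fold change with SE (x axis) of male-biased and all but 1 of the female-biased liver genes (y axis), for untreated HCC against healthy livers and miR-22-treated against untreated HCC, with filled points for called changes. In untreated HCC most female-biased genes are called left of 0, while the 17 male-biased genes divide into 5 called right and 9 called left; Cyp4a12b against healthy livers is not drawn because healthy livers were at 0 counts.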

How the data were processed

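RNA from 9 mouse livers was sequenced from non-directional libraries as read pairs. Per the submitters' processing notes and the study's methods, the authors ran FastQC 0.11.7, mapped read pairs to GRCm39 using Salmon, obtained gene totals through tximport and analysed these in DESeq2 1.18. The deposited table holds whole-number counts per gene, not normalized and not filtered. The deposited values already divided by size factors were not used. Without strand, a gene and its antisense partner cannot be told apart.

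A quasi-likelihood F test (two-sided) was run on the counts in edgeR 4.0.16 under R 4.3.3, after TMM scaling and filterByExpr. All 9 libraries entered one model with the group as its term. P-values were adjusted over 15717 genes (Benjamini-Hochberg). Called genes had a fold change over 1.5 and an adjusted p under 0.05. Intervals are 95% intervals. The common dispersion was 0.0206. Livers of the same group differed by more than counting error (chi-square per degree of freedom 6.13 to 28.36), so none was counted as a duplicate.

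Beside the 10 genes, the text names Jak2, Stat5a, Insr, Igf2, Igf2r, Igfbp1, Irs1, Irs2 and Prlr, up to 4 further genes of each list with the smallest p in either HCC comparison, and for Igf1 and Ghr the 3 nearest genes by centred log2 CPM. Groups came from the sample labels. The 10 genes, the lists and the rule were chosen with earlier results of these data known. Alternatives were DESeq2 1.42.0, DESeq2 size factors, upper-quartile scaling, no filter, at least 10 counts in every library, only the groups compared, no fold threshold, a replicate block and each liver left out. Tests were tried on simulated data. Positions, transcript lengths and 3′ UTRs are from GENCODE M39, which is not the release named by the authors. Some items that the rule names are not reported here.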

Additional observations from a re-analysis of the deposited data

How the results depend on the processing

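Of 490 values of the 10 genes under the alternatives, 462 kept their direction and their side of the threshold, 12 passed it, 7 no longer passed it and 9 changed sign. No called value changed sign. The number of genes called stayed at 6 to 8 (7 in the reported fit) for untreated HCC against healthy livers, 4 to 5 (4) for miR-22-treated against untreated HCC and 5 to 7 (5) for miR-22-treated HCC against healthy livers. The 9 sign changes were all of uncalled values. Igf1r in untreated HCC against healthy livers had log2 0.0022 with upper-quartile scaling, 0.0028 with at least 10 counts in every library and −0.23 to 0.084 with single livers left out. For miR-22-treated against untreated HCC, leaving out single livers gave −0.14 to 0.51 for Igfbp2, −0.32 to 0.21 for Socs2 and −0.52 to 0.22 for Cish. Igf1 in miR-22-treated HCC against healthy livers passed the threshold in 9 alternatives, among them DESeq2 (log2 −0.61) and the fit without miR-22-treated replicate 3 (log2 −0.72). Other scalings moved the median of all genes by at most 0.047 in log2 units.

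Counts over the lists also moved with single livers left out, an alternative chosen for the lists after seeing the data. For untreated HCC against healthy livers the receptor partners ranged from 2 to 3 (3 reported) and the adaptors ranged from 5 to 9 genes called (8 reported, 5 without untreated replicate 3). For miR-22-treated against untreated HCC the receptor partners ranged from 1 to 2 (2 reported, 1 without replicate 2 or 3 of either HCC group), and the adaptors from 3 to 5 (5 reported, 3 without untreated replicate 2 or miR-22-treated replicate 3). For miR-22-treated HCC against healthy livers the receptor partners ranged from 1 to 2 (2 reported, 1 without healthy replicate 2 or 3 or miR-22-treated replicate 3 or 4), the further IGF genes from 5 to 8 (8 reported, 5 without healthy replicate 2) and the adaptors from 1 to 4 (4 reported, 1 without healthy replicate 3). The remaining list counts stayed within 1.5 times the reported ones: with miR-22 against untreated HCC 9 to 14 female-biased (12 reported), 7 to 10 male-biased (9) and 2 to 4 further IGF genes (3), and against healthy livers 12 to 16 female-biased (15) and 7 to 11 male-biased (10). For untreated HCC against healthy livers, 8 further IGF genes, 17 female-biased and 14 male-biased genes were called in each such fit. The causes were not tested.

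Both HCC groups are numbered 2 to 4, and the labels do not say whether equal numbers pair the livers. Deviations from the group means correlated at −0.12, −0.13 and −0.24 across genes for equal numbers. No liver correlated best with its own number, so these values gave no sign of pairing. The mean of 0.08 for unequal numbers is no separate evidence, because deviations from a group mean cancel out within the group. Whether the numbers pair the livers cannot be decided from so few livers. Over all genes 2167 were called in the reported fit of 9 libraries, 2039 in a fit of the 6 HCC libraries alone (added for these counts after seeing the data) and 958 once a replicate block was added to the latter. In the same order, 4, 4 and 4 of the 10 genes, 12, 10 and 2 female-biased genes, and 2, 2 and 1 receptor partners were called.

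With 3 livers a group, changes inside the stated intervals of Socs2, Cish, Igfbp2 and Igf1r were not excluded. Igf1r rested on 69 to 151 counts per library. The CPM of a gene also depends on the rest of the library.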

Other observations

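Beside the named genes, single livers with miR-22 differed in the downstream genes, given here as values chosen after they were seen. In miR-22-treated replicates 2, 3 and 4, the female-biased gene A1bg, a plasma glycoprotein, was at 2338, 1264 and 369 CPM, against 28.7 to 233 CPM in untreated HCC and 3158 to 3349 CPM in healthy livers. Foxo1, a transcription factor restrained by AKT, was at 29.6, 82.1 and 44.6 CPM, and the value in replicate 3 was the highest of the 9 livers. Mup7, a male-biased urinary protein gene, was at 50.7, 92.9 and 33.2 CPM with miR-22 and at 9.43 to 63.3 CPM in healthy livers. Replicate 3 was also the liver with the lowest Cish and Socs2. In healthy, untreated and miR-22-treated livers, neutrophil markers summed to 1.76 to 4.53, 17.5 to 22.9 and 16.8 to 25.3 CPM, whereas macrophage markers summed to 363 to 458, 335 to 396 and 420.3 to 449.5 CPM and lymphocyte markers to 6.37 to 9.995, 6.91 to 9.40 and 8.35 to 11.6 CPM. Endothelial markers summed to 374 to 470.2, 230.4 to 296 and 310.2 to 398 CPM.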
